A study of Homo sapiens with 12 samples.

Results

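The genes described here are the semaphorin, plexin, neuropilin, ephrin, EPH receptor, SLIT and ROBO genes, chosen by symbol from the deposited gene tables, with antisense genes and pseudogenes left out. There are 60 of them among 57820 gene rows, namely 20 semaphorins, 9 plexins, 2 neuropilins, 8 ephrins, 14 EPH receptors, 3 SLIT ligands and 4 ROBO receptors. They were measured by RNA sequencing in G401, a rhabdoid tumour cell line whose labelled genotype is SMARCB1(-/-). SMARCB1 belongs to the core of the SWI/SNF family of chromatin remodellers, also called BAF complexes. All cells were given doxycycline, which switched on a transgene: GFP in the control cells and SMARCB1 in the others. Both kinds of cell received DMSO, the solvent, or dBRD9-A for 24 hours. This compound degrades BRD9, a protein that is part of non-canonical BAF. The 4 groups are GFP cells in DMSO, GFP cells in dBRD9-A, SMARCB1 cells in DMSO and SMARCB1 cells in dBRD9-A, with 3 libraries each. No parental or uninduced culture enters the comparisons. Whether the 3 libraries of a group came from separate cultures is not stated, so p-values measure the spread between these libraries, which may be technical.

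These families are the classical guidance cues of growing axons and migrating cells. Secreted class 3 semaphorins bind a neuropilin co-receptor, which passes the signal to a plexin of the A group or to PLXND1, whereas SEMA3E can bind PLXND1 directly. Most membrane-bound semaphorins bind plexins without a neuropilin. Ephrins are tethered to the membrane by a lipid anchor (EFNA) or a transmembrane segment (EFNB), and they signal through EPH receptor tyrosine kinases on a neighbouring cell. SLIT proteins are secreted ligands of the ROBO receptors. Neuropilins also act as co-receptors for vascular endothelial growth factors.

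Libraries held 34.97 to 58.54 megacounts (1 megacount is 1000000 counts) assigned to genes. CPM stands for counts per megacount of library. SMARCB1 had 0 to 2 counts in each GFP library and 53033 to 110893 counts in each SMARCB1 library, as labelled. In SMARCB1 cells its level was 1807 to 1912 CPM in DMSO and 1277 to 1327 CPM in dBRD9-A, without overlap. BRD9 RNA read 37.2 to 39.6 CPM in GFP cells in DMSO and 40.2 to 41.9 CPM in GFP cells in dBRD9-A. In SMARCB1 cells BRD9 RNA read 45.3 to 49.2 CPM in DMSO and 44.9 to 50.4 CPM in dBRD9-A. These counts do not measure BRD9 protein, so its degradation was not checked here. The rhabdoid marker list was abundant in every group, with a summed level of 6155 to 6884 CPM, and VIM, KRT8 and KRT18 supplied most of it. Its genes did not move alike: in DMSO, GFP and SMARCB1 libraries read 1288 to 1337 and 2238 to 2357 CPM for VIM, and 2440 to 2674 and 1665 to 1709.7 CPM for KRT18. EPCAM had 27 to 44 counts in GFP cells and 0 to 2 counts in SMARCB1 cells in DMSO. Of 7 endothelial markers matched, KDR had 0 counts throughout, and the summed level was 0.0263 to 0.254 CPM in GFP libraries and 0.83 to 1.36 CPM in SMARCB1 libraries. Of 10 neuron markers, ELAVL4 was at 0 and STMN2 and SNAP25 had at most 2 counts in any library. The neuron list summed to 240.2 to 249.7 CPM in GFP libraries and 442.5 to 563.3 CPM in SMARCB1 libraries, nearly all of it TUBB3. Leukocyte markers PTPRC and CD3E were at 0, and that list of 6 summed to at most 0.233 CPM. VWF supplied most of the endothelial sum in SMARCB1 libraries, with 1 to 5 counts per GFP library and 22 to 50 per SMARCB1 library in DMSO. CLDN5 and CDH5 had 0 counts in GFP libraries, and 3 to 8 and 3 to 10 in SMARCB1 libraries in DMSO. The summed endothelial and neuron levels were thus higher in SMARCB1 libraries, though not gene by gene. The neuron marker SYP, read in DMSO, gave 85 to 119 counts per GFP library and 16 to 30 per SMARCB1 library, and the endothelial marker ERG gave 4 to 8 and 0 to 3. The part of these cell type markers in the results was not tested. In these bulk samples a different share of expressing cells and a different amount of RNA per cell cannot be told apart. One library stood apart. SMARCB1 cells in DMSO, replicate 1, had 73 genes with at least 5 counts that had at most 1 count in each other library, against 0 to 8 such genes in each of the others. They included the astroglial genes GFAP (234 counts), AQP4 (78 counts), GPM6A (30 counts), ADCYAP1R1 (22 counts), SOX2 (15 counts) and S100B (7 counts). These belong to a list of 10 chosen after the data were seen. SLC1A3, also listed, had 43 counts here and at most 3 elsewhere. The rest of the list did not stand out: GJA1 had 14171 to 49515 counts in every library, ALDH1L1 had at most 4 in any, and SLC1A2 had 0 in this library. PLXNA4 (13 counts), SEMA6D (6 counts) and EPHA6 (1 count) were also seen in that library only. Without this library, 37 members changed with SMARCB1 in DMSO, 25 higher and 12 lower, the same counts as with it, and each of the 68 changes of named members kept its call and direction.

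The sequences below are the 250 bases before the RefSeq start of 5 members with large changes, 3 that rose with SMARCB1 (NRP2, SEMA3D and EPHB2) and 2 that fell to near 0 (SEMA5A and EPHA5). They are shown so that promoters on both sides can be set next to each other. They come from RefSeq on GRCh38.p14, a build other than the one named in the submitters' processing notes, and are written 5′ to 3′ on the gene's strand with CG dinucleotides in capitals. For EPHA5 and EPHB2, which have 2 windows each, the first is shown.
NRP2 (chr2:205682251-205682500, plus strand): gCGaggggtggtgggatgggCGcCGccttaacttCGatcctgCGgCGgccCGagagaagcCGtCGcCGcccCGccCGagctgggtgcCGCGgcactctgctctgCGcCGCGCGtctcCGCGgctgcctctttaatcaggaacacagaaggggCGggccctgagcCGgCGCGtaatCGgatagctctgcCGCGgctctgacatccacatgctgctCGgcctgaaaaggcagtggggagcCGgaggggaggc
SEMA3D (chr7:85187057-85187306, minus strand): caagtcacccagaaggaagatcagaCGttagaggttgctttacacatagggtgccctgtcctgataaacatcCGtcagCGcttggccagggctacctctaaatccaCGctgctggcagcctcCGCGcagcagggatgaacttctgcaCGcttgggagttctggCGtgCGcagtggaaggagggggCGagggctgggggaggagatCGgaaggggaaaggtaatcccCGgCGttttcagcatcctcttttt
EPHB2 (chr1:22710588-22710837, plus strand): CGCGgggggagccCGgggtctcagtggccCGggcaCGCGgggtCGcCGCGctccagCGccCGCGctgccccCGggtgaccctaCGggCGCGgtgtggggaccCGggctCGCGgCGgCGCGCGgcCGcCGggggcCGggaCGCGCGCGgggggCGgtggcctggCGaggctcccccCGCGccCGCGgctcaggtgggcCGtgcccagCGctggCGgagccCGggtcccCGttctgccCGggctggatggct
SEMA5A (chr5:9546076-9546325, minus strand): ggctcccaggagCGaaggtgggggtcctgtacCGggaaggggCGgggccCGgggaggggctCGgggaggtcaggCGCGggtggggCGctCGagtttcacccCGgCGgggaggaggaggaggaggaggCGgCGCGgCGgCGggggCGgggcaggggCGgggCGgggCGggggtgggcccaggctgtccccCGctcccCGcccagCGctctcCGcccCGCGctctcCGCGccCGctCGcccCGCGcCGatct
EPHA5 (chr4:65670490-65670739, minus strand): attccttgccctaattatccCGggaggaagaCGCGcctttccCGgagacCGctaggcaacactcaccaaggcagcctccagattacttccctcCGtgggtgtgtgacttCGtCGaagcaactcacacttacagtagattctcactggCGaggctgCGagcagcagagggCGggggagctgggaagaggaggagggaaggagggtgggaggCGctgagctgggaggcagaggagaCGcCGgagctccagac
The printed stretches hold 29 CG dinucleotides for NRP2, 13 for SEMA3D and 42 for EPHB2, against 33 for SEMA5A and 14 for EPHA5. RefSeq windows of 300 bases (250 before and 50 after the start) were found for 54 of the 60 members, 85 windows in all, and SEMA3A, SEMA6A, SEMA6B, NRP1, EFNB3 and EPHA10 had none in the table. The median window of a member held 21 CG dinucleotides (quartiles 11 and 33), and the median of all 35116 windows held 14 (quartiles 4 and 28). On either strand TGANTCA, the letters bound by AP-1 factors, was in 1 of the 85 windows (1.18%) and in 7.71% of all windows. GGAATG, the letters bound by TEAD factors, was in 9 of the 85 (10.6%) and in 14% of all. Neither motif was in the 5 printed stretches, which says only that these letters are not there.

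The question of the first comparison was what SMARCB1 does to these genes in DMSO. The largest rises were of NRP2, SEMA3A, EPHB2, SEMA3D and EFNA1, and the largest falls of SEMA5A, EPHA5, SEMA4G and SEMA4A. Of the 60 members, 44 had enough counts to be tested. Among these 44, the edgeR quasi-likelihood fit called 37 changed (adjusted p under 0.05), with 25 higher and 12 lower. The background was high, since 65% of all 15750 genes tested changed, 33.5% higher and 31.6% lower. A log2 fold change of at least 1 in either direction was reached by 18 members, 11 higher and 7 lower, and by 14.6% of all genes tested. The median size of the log2 fold change, regardless of sign, was 0.73 over the 44 members and 0.28 over all genes. The 3 SMARCB1 libraries did not overlap the 3 GFP libraries for 41 of the 44, as for 68.7% of all genes. Scaling to the spike-in RNAs moved the all-gene median of the log2 values by 0.17 and gave 28 of the 44 members higher and 10 lower, beside 43.4% and 16.4% of all genes.

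**Figure D1:**
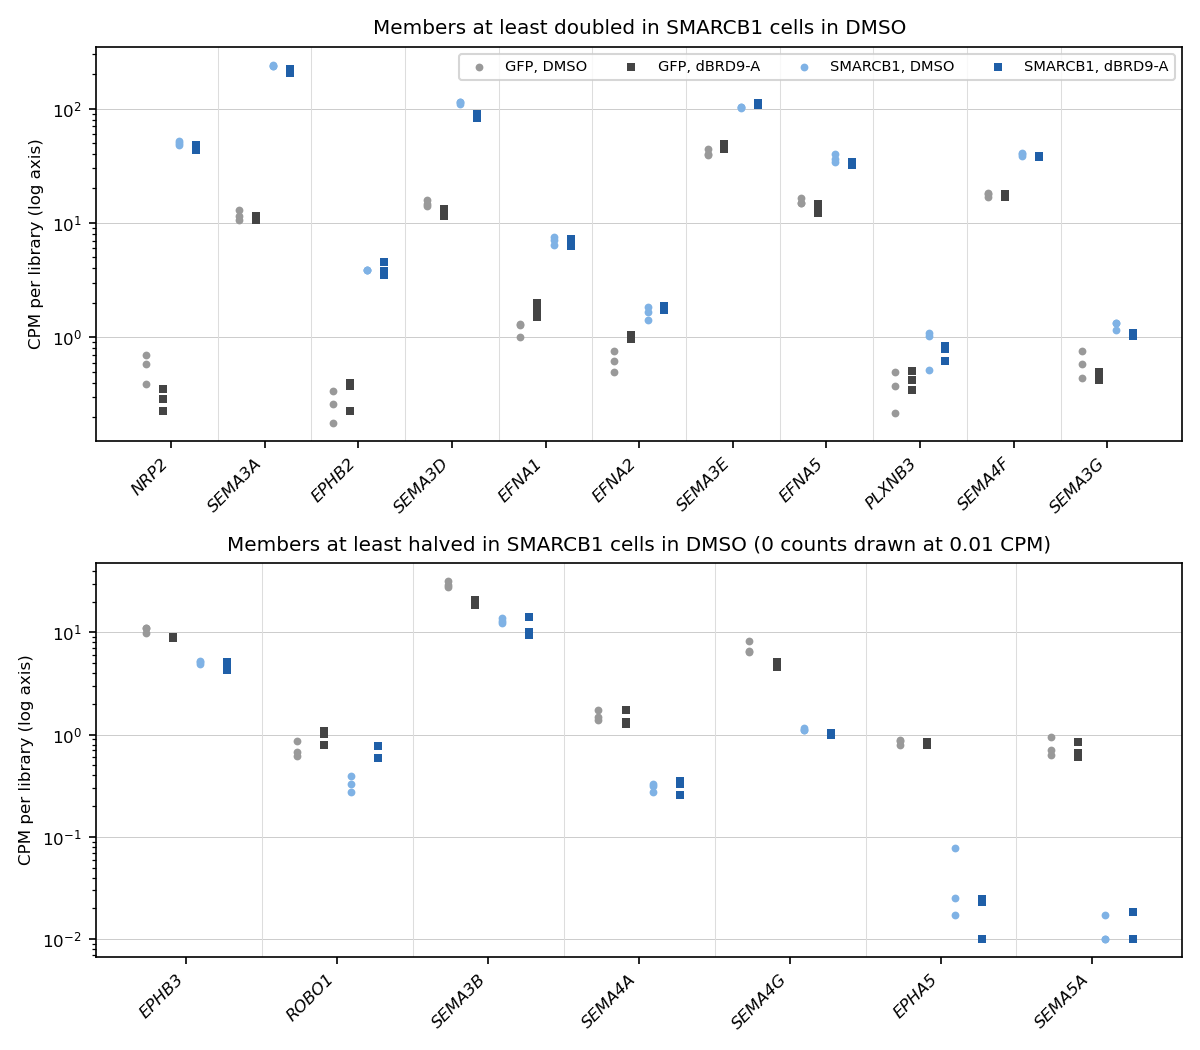
Level of each member whose log2 fold change with SMARCB1 in DMSO was at least 1 in size, in CPM on a log axis, with 1 point per library and 3 libraries per group; libraries with 0 counts are drawn at 0.01 CPM. SEMA3A sits at 10.7 to 12.9 CPM in GFP cells in DMSO and 233 to 241 CPM in SMARCB1 cells in DMSO, and SEMA5A and EPHA5 drop to between 0 and 3 counts per library in SMARCB1 cells.

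Class 3 semaphorins, the secreted ligands of neuropilins, changed in 7 of 7 cases, 6 higher and 1 lower, with a median log2 fold change of 1.12. Over all genes tested, 33.5% were higher and 31.6% lower. SEMA3A (ENSG00000075213.6), the prototype repulsive cue of axons, read 11.5, 12.9 and 10.7 CPM in GFP cells in DMSO and 233, 235 and 241 CPM in SMARCB1 cells in DMSO. In dBRD9-A it read 11.4, 10.7 and 10.5 CPM in GFP cells and 218, 205 and 223 CPM in SMARCB1 cells. SMARCB1 libraries lay far above GFP libraries under either treatment, and the level rose 20.2-fold in DMSO (log2 fold change 4.35, SE 0.05, adjusted p 6.76e-21). SEMA3D (ENSG00000153993.9), a cue of heart and vessel development among others, read 14.1, 14.7 and 15.8 CPM in GFP cells and 114, 110 and 115 CPM in SMARCB1 cells in DMSO. No libraries of the 2 groups overlapped, and the rise was 7.58-fold (log2 fold change 2.92, SE 0.05, adjusted p 1.81e-18). SEMA3E (ENSG00000170381.8), the ligand of PLXND1, read 40.0, 44.2 and 39.6 CPM in GFP cells and 101, 103 and 103 CPM in SMARCB1 cells in DMSO (log2 fold change 1.32, SE 0.04, adjusted p 7.95e-15). SEMA3G (ENSG00000010319.2) was scarce, at 0.444, 0.752 and 0.588 CPM in GFP cells and 1.34, 1.16 and 1.32 CPM in SMARCB1 cells (log2 fold change 1.12, SE 0.19, adjusted p 6.43e-05).

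SEMA3C (ENSG00000075223.9), a cue of cardiac outflow tract development, was the most abundant semaphorin. It read 334, 349 and 349 CPM in GFP cells and 540, 536 and 542 CPM in SMARCB1 cells in DMSO (log2 fold change 0.65, SE 0.03, adjusted p 1.48e-12). SEMA3F rose by 0.29 on the log2 scale (SE 0.07, adjusted p 0.000954). SEMA3B (ENSG00000012171.13), a cue also described as a tumour suppressor, was the member of the class that fell. It read 29, 31.9 and 27.9 CPM in GFP cells and 13.9, 12.4 and 13 CPM in SMARCB1 cells in DMSO (log2 fold change -1.18, SE 0.10, adjusted p 1.45e-08). Its exons overlap the microRNA gene MIR6872 on the same strand in GENCODE 29. Per kilobase of the longest coding transcript in that annotation, the order of the class was led by SEMA3C, at 66.5 ± 1.63 CPM per kb in GFP cells and 104 ± 0.612 CPM per kb in SMARCB1 cells in DMSO (SD, n = 3). On that per-length scale SEMA3A moved from 1.42 ± 0.135 to 28.7 ± 0.485 CPM per kb (SD, n = 3), from the 12th to the 2nd place among the 20 semaphorins.

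Semaphorins of classes 4 to 7, which are held at the membrane, went both ways, with 4 higher and 5 lower among the 10 tested of 13. The shares over all genes were 33.5% higher and 31.6% lower. SEMA5A (ENSG00000112902.7), which has thrombospondin repeats and binds plexins, had 36, 29 and 55 counts in GFP cells in DMSO and 0, 0 and 1 counts in SMARCB1 cells. In dBRD9-A it had 28, 23 and 30 counts in GFP cells and 0, 1 and 0 counts in SMARCB1 cells. GFP libraries were thus above every SMARCB1 library, and the ratio of GFP to SMARCB1 in DMSO was 105 (exact 95% counting interval 18.5 to 4182, adjusted p 3.29e-08). SEMA5A exons overlap AC021088.1 on the opposite strand in GENCODE 29. SEMA4G (ENSG00000095539.11) read 6.64, 8.29 and 6.45 CPM in GFP cells and 1.10, 1.11 and 1.15 CPM in SMARCB1 cells in DMSO (log2 fold change -2.65, SE 0.12, adjusted p 1.87e-12). Its exons overlap MRPL43 on the opposite strand in GENCODE 29, and whether the authors' counting used strand is not given in the sources used here. SEMA4A (ENSG00000196189.8), known for roles in T cells and the retina, read 1.38, 1.5 and 1.73 CPM in GFP cells and 0.314, 0.277 and 0.327 CPM in SMARCB1 cells (log2 fold change -2.31, SE 0.21, adjusted p 3.59e-08).

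SEMA7A (ENSG00000138623.5), a lipid-anchored semaphorin that binds PLXNC1 and integrins, read 19.9, 19.2 and 20.1 CPM in GFP cells and 12.5, 13.7 and 11.5 CPM in SMARCB1 cells in DMSO (log2 fold change -0.66, SE 0.07, adjusted p 1.13e-07). SEMA6B, a transmembrane ligand of A-group plexins, fell, with a log2 change of -0.57 (SE 0.06, adjusted p 3.16e-07) and stayed in the upper 3 semaphorins per kilobase, at 37.9 ± 1.10 and 25.7 ± 1.04 CPM per kb (SD, n = 3). SEMA4F (ENSG00000135622.8) rose, from 18.1, 16.8 and 17.7 CPM to 40.0, 40.6 and 38.2 CPM (log2 fold change 1.17, SE 0.04, adjusted p 7.56e-14). SEMA4B, SEMA4C and SEMA4D, the ligand of PLXNB1, rose by log2 fold changes of 0.44, 0.78 and 0.55. SEMA6C was not past the threshold, at 0.27 (SE 0.15, adjusted p 0.144).

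Both neuropilins, the co-receptors of class 3 semaphorins, rose with SMARCB1 in DMSO, as did 33.5% of all genes tested. NRP2 (ENSG00000118257.12) had the largest rise of all members. It read 0.692, 0.388 and 0.588 CPM in GFP cells in DMSO and 48.3, 52.1 and 50.3 CPM in SMARCB1 cells in DMSO. In dBRD9-A it read 0.351, 0.290 and 0.226 CPM in GFP cells and 43.8, 47.8 and 44.7 CPM in SMARCB1 cells. The 2 cell states did not come near each other, and the mean rose 90.4-fold in DMSO (log2 fold change 6.45, SE 0.09, adjusted p 1.12e-19). NRP1 (ENSG00000099250.13) was already present, at 61.2, 56.2 and 59.4 CPM in GFP cells, and read 110, 109 and 114 CPM in SMARCB1 cells (log2 fold change 0.92, SE 0.04, adjusted p 2.82e-13). Per kilobase NRP2 moved from 0.0835 ± 0.0232 to 7.54 ± 0.284 CPM per kb, and NRP1 from 10.02 ± 0.434 to 18.9 ± 0.401 CPM per kb (SD, n = 3), so NRP1 stayed the more abundant of the pair. In GENCODE 29 NRP2 overlaps AC007362.1 and NRP1 overlaps AL121748.2, each on the opposite strand.

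Of the plexins, the signalling receptors, 5 of 7 tested rose and none fell in DMSO, beside 33.5% and 31.6% of all genes tested. Spike-in scaling gave 6 and 0, beside 43.4% and 16.4% of all genes. In dBRD9-A 5 plexins were higher and 1 lower, beside 33% and 30.4% of all genes. Spike-in scaling gave 2 and 1 in that arm, beside 13.5% and 57.4% of all genes. PLXNB2 (ENSG00000196576.10), a receptor of class 4 semaphorins, was the most abundant per kilobase. It read 89.5, 94.9 and 94.3 CPM in GFP cells and 127, 133 and 136 CPM in SMARCB1 cells in DMSO (log2 fold change 0.51, SE 0.04, adjusted p 4.81e-09). PLXNA1 and PLXNA2 (ENSG00000076356.6), which pair with neuropilins, rose by 0.82 (SE 0.06, adjusted p 4.49e-10) and by 0.49 on the log2 scale (SE 0.06, adjusted p 8.61e-07), and PLXNA3 rose by 0.59 (SE 0.12, adjusted p 0.000461). PLXNB3 (ENSG00000198753.7), the receptor of SEMA5A, read 0.373, 0.218 and 0.501 CPM in GFP cells and 1.10, 1.03 and 0.516 CPM in SMARCB1 cells. The lowest SMARCB1 library was thus only just above the highest GFP library (log2 fold change 1.19, SE 0.32, adjusted p 0.00344), and PLXNB3 shares exon sequence with SRPK3 on the same strand. PLXNB1 and PLXND1, the receptor of SEMA3E, were not past the threshold, at 0.11 (SE 0.06, adjusted p 0.142) and -0.10 (SE 0.06, adjusted p 0.136).

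**Figure D2:**
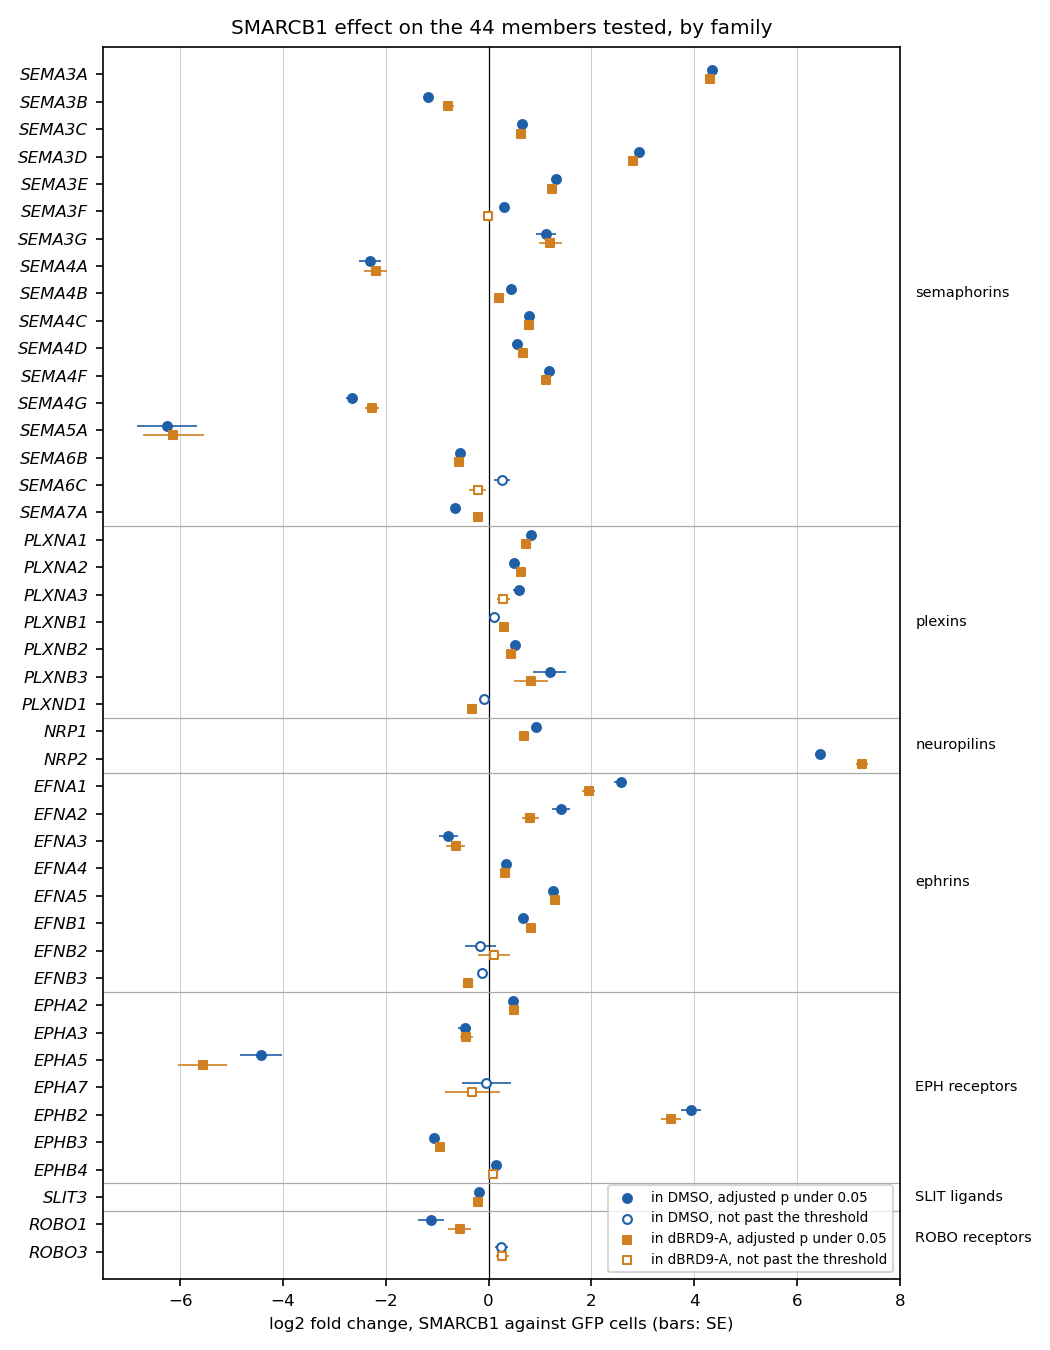
Log2 fold change of SMARCB1 against GFP cells for the 44 members tested, by family, in DMSO (circles) and in dBRD9-A (squares), with SE bars; filled symbols have an adjusted p under 0.05. NRP2 lies farthest to the right, at 6.45 and 7.27, and SEMA5A and EPHA5 farthest to the left, as fitted values that rest on 0 to 3 counts per SMARCB1 library.

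Ephrins, the membrane-tethered ligands, rose in 5 and fell in 1 of 8 cases, beside 33.5% and 31.6% of all genes tested. EFNA1 (ENSG00000169242.7), a ligand of EPHA2, read 1.3, 1.28 and 1 CPM in GFP cells and 7.09, 6.38 and 7.59 CPM in SMARCB1 cells in DMSO. The groups did not overlap, and the rise was 5.88-fold (log2 fold change 2.57, SE 0.12, adjusted p 4.38e-12). EFNA2 (ENSG00000099617.2) rose from 0.621, 0.752 and 0.501 CPM to 1.41, 1.66 and 1.82 CPM (log2 fold change 1.42, SE 0.17, adjusted p 1.37e-06). EFNA5 (ENSG00000184349.8), a ligand in retinal map formation, rose from 15, 16.5 and 15 CPM to 34.1, 35.9 and 39.8 CPM (log2 fold change 1.25, SE 0.06, adjusted p 7.27e-12). EFNA4 and EFNB1 rose by 0.35 and 0.67 on the log2 scale, and EFNA3 fell by 0.79 on that scale. EFNA3 and EFNA4 share exon sequence with the annotated gene AL691442.1, so their counts depend on how reads were divided. EFNB3 (ENSG00000108947.4) was not past the threshold in DMSO (log2 fold change -0.13, SE 0.08, adjusted p 0.156), nor was EFNB2 (-0.16, SE 0.30, adjusted p 0.661). Per kilobase EFNB3 led the ephrins in GFP cells in DMSO, at 4.80 ± 0.402 CPM per kb, and EFNA5 led in SMARCB1 cells in DMSO, at 6.87 ± 0.545 CPM per kb (SD, n = 3).

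EPH receptors split, with 3 higher and 3 lower among 7 tested of 14, beside 33.5% and 31.6% of all genes tested. EPHB2 (ENSG00000133216.12), a receptor of B-type ephrins known from the intestinal crypt and from synapses, had 10, 14 and 15 counts in GFP cells and 147, 153 and 227 counts in SMARCB1 cells in DMSO. In CPM these were 0.178, 0.339 and 0.259 against 3.85, 3.86 and 3.91. The rise was 14.96-fold (log2 fold change 3.93, SE 0.20, adjusted p 6.68e-12). EPHA5 (ENSG00000145242.9), a neural receptor of A-type ephrins, had 49, 33 and 51 counts in GFP cells and 3, 1 and 1 counts in SMARCB1 cells in DMSO. The ratio of GFP to SMARCB1 was 23.3 (exact 95% counting interval 9.73 to 72.9, adjusted p 2.71e-08). EPHA5 overlaps EPHA5-AS1, and EPHB2 overlaps MIR4253, on the opposite strand. EPHB3 (ENSG00000182580.2) read 11.2, 11 and 9.89 CPM in GFP cells and 5.18, 4.86 and 5.23 CPM in SMARCB1 cells (log2 fold change -1.06, SE 0.08, adjusted p 1.18e-09). So EPHB2 rose and its paralogue EPHB3 fell. EPHA2 (ENSG00000142627.9), a receptor often raised in tumours, and EPHB4, a receptor of veins, were the most abundant per kilobase in SMARCB1 cells in DMSO, at 24.5 ± 0.917 and 19.2 ± 0.294 CPM per kb (SD, n = 3). In GFP cells they were at 17.7 ± 0.764 and 17.5 ± 0.404 CPM per kb, with overlapping libraries. EPHA2 rose by 0.47 on the log2 scale (SE 0.05, adjusted p 9.21e-08) and EPHB4 by 0.14 (SE 0.04, adjusted p 0.00626).

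The SLIT and ROBO genes changed little or were scarce. SLIT3 (ENSG00000184347.10), the only SLIT ligand tested, read 30.8, 31.5 and 31.6 CPM in GFP cells and 26.6, 26.9 and 28.8 CPM in SMARCB1 cells in DMSO (log2 fold change -0.19, SE 0.05, adjusted p 0.00201). With spike-in scaling this value was -0.02 (adjusted p 0.856). SLIT3 exons overlap AC011365.1, AC011365.2 and RF00019 on the opposite strand in GENCODE 29. ROBO1 (ENSG00000169855.15), the broadly expressed SLIT receptor, had 35, 36 and 39 counts in GFP cells and 15, 13 and 16 counts in SMARCB1 cells (log2 fold change -1.13, SE 0.25, adjusted p 0.000851). ROBO3 (ENSG00000154134.10), which is known for its part in midline crossing, was the more abundant of the 2 tested receptors per kilobase, and its value of 0.25 (SE 0.13, adjusted p 0.0921) was not past the threshold.

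SMARCB1 and GFP cells were also compared in dBRD9-A, with libraries that the DMSO comparison did not use. There 37 of the 44 members changed, 23 higher and 14 lower, beside 63.3% of all genes tested, 33% higher and 30.4% lower. The groups did not overlap for 39 of the 44 and for 66.2% of all genes. A log2 fold change of at least 1 in size was reached by 13, beside 14.6% of all genes. Of the 37 that changed in DMSO, 34 changed the same way in dBRD9-A (91.9%), as did 84.8% of all genes that changed in DMSO. NRP2 rose 157-fold (log2 fold change 7.27, SE 0.11, adjusted p 3.29e-19) and EPHB2 11.9-fold (3.55, SE 0.20, adjusted p 3.44e-11). SEMA3A and SEMA3D rose by 4.30 and 2.81 on the log2 scale, and SEMA5A had a ratio of GFP to SMARCB1 of 95.8 (exact 95% counting interval 16.7 to 3832). EPHA5 had 35, 30 and 30 counts in GFP cells and 1, 0 and 1 counts in SMARCB1 cells, a ratio of 56.2 (exact 95% counting interval 15.1 to 470.8). PLXNB1 (ENSG00000164050.8), PLXND1 and EFNB3 changed in this arm and were not past the threshold in DMSO. Their log2 values were 0.31 (SE 0.06, adjusted p 0.000499) for PLXNB1 and -0.40 (SE 0.08, adjusted p 0.000243) for EFNB3. PLXND1, the receptor of SEMA3E, fell by a log2 value of -0.32 (SE 0.06, adjusted p 9.02e-05), without overlap of the groups. PLXNB1 was at -0.02 with spike-in scaling. Spike-in scaling put the all-gene median of the log2 values at -0.32 in this arm. It gave 18 of the 44 members higher and 17 lower, beside 13.5% and 57.4% of all genes. PLXNB3 (0.83, SE 0.33, adjusted p 0.0392) and ROBO1 (-0.57, SE 0.23, adjusted p 0.0367) passed narrowly, and each lost its call when 1 of several dBRD9-A libraries was left out. For PLXNB3 these were GFP replicates 1 and 2 and SMARCB1 replicates 2 and 3 (0.70 to 0.82). For ROBO1 they were GFP replicates 1 and 3 and SMARCB1 replicates 1 and 2 (-0.53 to -0.48).

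The effect of the BRD9 degrader was read within each cell state. In GFP cells 12 of the 44 members changed with dBRD9-A, 4 higher and 8 lower, beside 15.9% of all genes tested, 7.43% higher and 8.47% lower. No member reached a log2 fold change of 1 in either direction, as 0.908% of all genes did. The groups did not overlap for 15 of the 44 and for 34% of all genes. The 4 that rose were EFNA2, EFNA1, EFNB3 and SEMA3E, so 3 of 8 ephrins rose and none fell. The 8 that fell were NRP2, SEMA3B, SEMA4G, SEMA7A, PLXNB1, EPHB3, SEMA3D and PLXNA2. SEMA7A read 19.9, 19.2 and 20.1 CPM in DMSO and 13.6, 14.7 and 13.7 CPM after dBRD9-A treatment (log2 fold change -0.50, SE 0.07, adjusted p 4.53e-05). SEMA3B went from between 27.9 and 31.9 CPM to 18.4, 19.7 and 20.8 CPM (-0.59, SE 0.10, adjusted p 0.000429), and SEMA4G from between 6.45 and 8.29 CPM to 5, 4.64 and 5.08 CPM (-0.53, SE 0.10, adjusted p 0.00116). These 3 genes also fell with SMARCB1 in DMSO, a comparison that shares the GFP libraries in DMSO with this one. NRP2 had 39, 16 and 34 counts in DMSO and 15, 11 and 8 counts in dBRD9-A, without overlap (-0.96, SE 0.26, adjusted p 0.0185).

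EFNA2 read 1.05, 0.974 and 1.02 CPM in GFP cells in dBRD9-A, above its 3 DMSO libraries (log2 fold change 0.72, SE 0.19, adjusted p 0.0159), and EFNA1 read 1.68, 2 and 1.5 CPM (0.54, SE 0.15, adjusted p 0.023). Changes of SEMA3E (0.18), EFNB3 (0.26), SEMA3D (-0.26), EPHB3 (-0.27), PLXNB1 (-0.28) and PLXNA2 (-0.20) were small. Spike-in scaling shifted the median of all genes by 0.36 in this contrast and gave 25 of the 44 members higher and 2 lower, beside 70.4% and 1.44% of all genes. It turned SEMA3D to 0.10, PLXNA2 to 0.16, PLXNB1 to 0.08 and EPHB3 to 0.09, and put SEMA4G at -0.17 (adjusted p 0.205) and SEMA7A at -0.14 (adjusted p 0.104), so the direction of 4 of the 8 falls depends on the scaling. The count of 12 fell to 6 without GFP cells in DMSO replicate 3 and to 7 without GFP cells in dBRD9-A replicate 2. Several calls ended when 1 library of GFP cells was left out, while the direction held. NRP2 was not called without DMSO replicate 1 or 3 or dBRD9-A replicate 2 or 3 (-0.95 to -0.78). EFNA1 was not called without DMSO replicate 3 or dBRD9-A replicate 1 or 2 (0.42 to 0.57), and EFNA2 without DMSO replicate 3 or dBRD9-A replicate 1 (0.58 to 0.69). EFNB3 lost its call without replicate 1 or 3 of either treatment (0.19 to 0.26), and EPHB3 without replicate 1 or 2 of either (-0.26 to -0.24). PLXNA2 lost its call without any of these libraries but dBRD9-A replicate 1 (-0.22 to -0.16), SEMA3D without DMSO replicate 3 (-0.21) and SEMA3E without dBRD9-A replicate 2 (0.14).

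**Figure D3:**
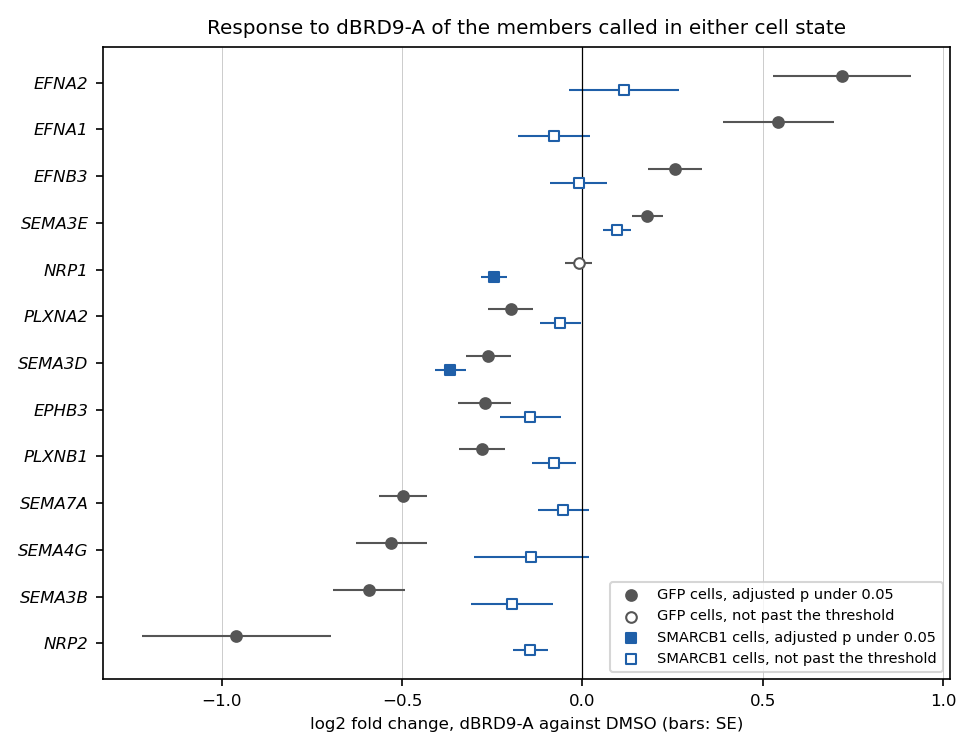
Log2 fold change of dBRD9-A against DMSO, with SE bars, in GFP cells (circles) and SMARCB1 cells (squares) for the 13 members that changed in either; filled symbols have an adjusted p under 0.05. SEMA7A sits at -0.50 in GFP cells and -0.05 in SMARCB1 cells, NRP1 at -0.01 and -0.25, and SEMA3D is below 0 in both.

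In SMARCB1 cells 2 of the 44 members changed with dBRD9-A, both lower, beside 1.93% of all genes tested, 0.679% higher and 1.25% lower. The groups did not overlap for 13 of the 44 and for 16.9% of all genes, and none of the changed members reached a log2 fold change of 1, as 0.146% of all genes did. An unadjusted p under 0.05 was reached by 11 of the 44 and by 12.7% of all genes. SEMA3D read 114, 110 and 115 CPM in DMSO and 89.8, 82.7 and 90.0 CPM after dBRD9-A treatment (log2 fold change -0.37, SE 0.04, adjusted p 8.77e-05). NRP1 read 110, 109 and 114 CPM in DMSO and 94.4, 89.7 and 97.8 CPM in dBRD9-A (-0.25, SE 0.04, adjusted p 0.000845). In neither gene did the groups overlap. SEMA3D was the 1 member that changed in both cell states. ROBO1 stood at 0.99 (SE 0.26, adjusted p 0.0678), not past the threshold. The SMARCB1 gene itself was lower in dBRD9-A in these cells (1277 to 1327 CPM against 1807 to 1912 CPM in DMSO), and its part in these changes and in the interaction was not tested.

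The difference between the 2 responses was tested as an interaction, and 2 of the 44 members passed, 1 in each direction, beside 3.8% of all genes tested, 2.15% higher and 1.65% lower. For SEMA7A the response was higher in SMARCB1 cells than in GFP cells by 0.44 on the log2 scale (SE 0.10, adjusted p 0.0135). Its 12 libraries read 19.2 to 20.1 CPM in GFP cells in DMSO, 13.6 to 14.7 CPM in GFP cells in dBRD9-A, 11.5 to 13.7 CPM in SMARCB1 cells in DMSO and 10.9 to 12.9 CPM in SMARCB1 cells in dBRD9-A. For NRP1 the response was lower in SMARCB1 cells by -0.24 (SE 0.05, adjusted p 0.0144). With spike-in scaling, which put the median of all genes at -0.49, SEMA7A was at -0.06 and NRP1 at -0.73. For NRP2, EFNA1 and SEMA3B the interaction was 0.82 (adjusted p 0.118), -0.62 (adjusted p 0.0755) and 0.40 (adjusted p 0.187), so their responses were not shown to differ.

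Other genes of the same pathways came from 4 lists. Their counts stand beside 33.5% of all genes tested that rose and 31.6% that fell with SMARCB1 in DMSO. In dBRD9-A these shares were 33% and 30.4%. Of 16 genes of the netrin, DCC, UNC5 and RGM system, 10 were tested, and 6 rose and 3 fell with SMARCB1 in DMSO (dBRD9-A: 6 and 3). NTN1, which encodes netrin-1, had 2 to 3 counts in GFP libraries in DMSO and 28 to 57 in SMARCB1 libraries (adjusted p 4.12e-08), and RGMA fell (-1.24, SE 0.37, adjusted p 0.00762). Of 24 plexin effectors and co-receptors, 23 were tested, and 13 rose and 8 fell. MET, the receptor kinase that associates with B-group plexins, rose from 0.486 ± 0.121 to 12.1 ± 0.355 CPM (SD, n = 3; log2 fold change 4.61, SE 0.14, adjusted p 4.80e-15). CHL1, a cell adhesion partner of NRP1, fell from 24.5 ± 0.450 to 0.328 ± 0.0850 CPM (SD, n = 3; -6.20, SE 0.11, adjusted p 5.07e-18). Of 19 EPH and ephrin effectors, 15 were tested, and 9 rose and 2 fell, with NCK2 at 2.02 (SE 0.07) and TIAM1, an exchange factor for RAC1, at -7.23 (SE 0.31), from between 243 and 341 counts to between 0 and 4. Of 16 SLIT and ROBO effectors matched and tested, 11 rose and 2 fell, with GPC1, a heparan sulphate carrier, at 1.52 (SE 0.07) and SRGAP3 at -0.57 (SE 0.24, adjusted p 0.044). Spike-in scaling gave 6 and 2, 14 and 3, 12 and 2, and 11 and 0 for the 4 lists in this order in DMSO. Over all genes it gave 43.4% higher and 16.4% lower. In dBRD9-A the 4 lists had 6 and 3, 13 and 7, 8 and 2, and 10 and 2 genes higher and lower. Spike-in scaling gave 5 and 3, 6 and 12, 5 and 7, and 3 and 8 in that arm. Over all genes it gave 13.5% higher and 57.4% lower there, so the balance of 3 of the 4 lists depends on the scaling.

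Of the class 3 genes that rose, 4 lie in one stretch of chromosome 7, which was looked at after their values were seen. RefSeq places 7 protein-coding genes from SEMA3C to SEMA3D, in the order SEMA3C, HGF, CACNA2D1, PCLO, SEMA3E, SEMA3A and SEMA3D. With SMARCB1 in DMSO 6 of the 7 rose, as did 33.5% of all genes tested. The 4 semaphorins among the 6 are the genes that prompted the look, so this count is a description only. Of the 3 other genes, HGF and PCLO rose and CACNA2D1 was not past the threshold. HGF, the ligand of MET, had 0 to 4 counts in GFP libraries and 23 to 52 counts in SMARCB1 libraries in DMSO (log2 fold change 4.26, SE 0.45, adjusted p 2.21e-07). PCLO, a presynaptic scaffold gene, rose by 0.52 (SE 0.06, adjusted p 5.78e-07). CACNA2D1, a calcium channel subunit gene in the middle of the stretch, was at 47.6 ± 0.910 and 46.0 ± 3.01 CPM (SD, n = 3; -0.05, SE 0.04, adjusted p 0.349). Beyond the ends, GNAI1, CD36 and ELAPOR2 rose by 1.08, 1.54 and 1.19, GNAT3 was too scarce to be tested and GRM3 had 0 counts in each library. CD36 was scarce, with 5 to 7 counts in GFP libraries and 10 to 21 in SMARCB1 libraries in DMSO.

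**Figure D4:**
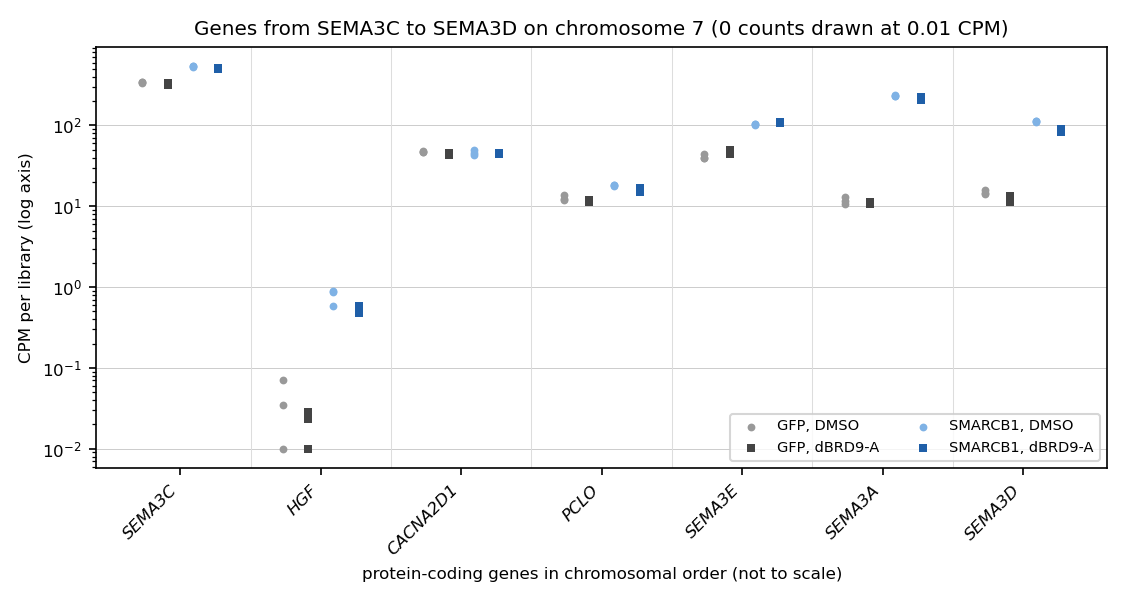
Level in CPM on a log axis of the 7 protein-coding genes from SEMA3C to SEMA3D in chromosomal order (not to scale), with 1 point per library; libraries with 0 counts are drawn at 0.01 CPM. SMARCB1 libraries lie above GFP libraries for 6 of the 7, and CACNA2D1 stays near 46 CPM in each group.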

How the data were processed

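RNA was sequenced from 12 libraries of G401 cells, 3 per group, made with a TruSeq Stranded mRNA kit per the labels' protocols. The authors deposited RSEM expected counts per gene. STAR, RSEM 1.3.1, DESeq2 and the builds GRCh37 and hg19 are named per the submitters' processing notes, with no role or order; the annotation and the use of strand in counting are not given in the sources used here, so reads of overlapping antisense genes may not be separable. The 3 tables share libraries, which had identical values in the 6 columns compared.

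Expected counts were rounded. Spike-in rows (40, holding 0.963% to 1.30% of counts) were left out of library sizes. Genes passing filterByExpr (minimum count 10) were tested in R 4.3.3 with edgeR 4.0.16, by a quasi-likelihood fit of 4 group coefficients to all 12 libraries with TMM scaling and Benjamini-Hochberg adjustment over 15750 genes. Every adjusted p printed is from this test unless another setting is named. CPM are counts per megacount (1000000 counts) of TMM-scaled library, and the SE was derived from the quasi-F statistic. A count of 3, the floor, was 0.0516 to 0.0847 CPM. Intervals of ratios are exact binomial intervals and cover counting error only. The script was tested on simulated data. Alternatives were DESeq2 1.42.0, its size factors in edgeR, other filters, spike-in scaling, only the groups compared, a replicate block, a fold limit and leaving out each library.

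Members with an adjusted p under 0.05 and a log2 fold change of at least 1 in size for SMARCB1, members that changed with dBRD9-A or in the interaction, and the most abundant of each family were given values in full, with the largest rise and fall of each pathway list. The members and lists were chosen with earlier results of these data known. The labels number the replicates 1 to 3 in each group. Same-numbered libraries of different groups did not deviate together, with correlations from -0.0891 to 0.0573 over 18 pairs, so they were not treated as pairs. Lengths and overlaps came from GENCODE 29 on GRCh38, from which no coordinates are given.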

Additional observations from a re-analysis of the deposited data

Results flagged for a closer look

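The response of SEMA7A to dBRD9-A differed between the cell states in the interaction test, by 0.44 on the log2 scale (SMARCB1 cells minus GFP cells, edgeR adjusted p 0.0135). It kept its call in all 12 leave-one-out fits, with a range of 0.37 to 0.51. The response of NRP1 differed in the other direction, by -0.24 (adjusted p 0.0144), with a range of -0.27 to -0.20 over the same fits. Spike-in scaling put the median interaction of all genes at -0.49. With it SEMA7A was at -0.06, so its direction depends on the scaling, and NRP1 was at -0.73.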

How the results depend on the processing

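Over 68 changes of named members and their alternatives, 1230 of 1280 values kept direction and side of the threshold, 44 no longer passed it and 6 changed direction. All 6 were under spike-in scaling, which resets every library by its spike-in counts: SEMA3D 0.0962, PLXNA2 0.159, PLXNB1 0.0778 and EPHB3 0.0868 for dBRD9-A in GFP cells, PLXNB1 -0.0233 for SMARCB1 in dBRD9-A, and SEMA7A -0.0572 for the interaction. Spike-in scaling also gave 27 members changed with dBRD9-A in GFP cells, 9 in SMARCB1 cells and 30 in the interaction (of 44 each), beside 71.8%, 5.54% and 71.6% of all genes. How the spike-ins were added is not given in the labels. With no filter on low counts, dBRD9-A changed 7 members in SMARCB1 cells (2 higher, 5 lower) and 4 passed the interaction. The share of all genes under that setting is not given here, so these counts are not read as particular to the members. The cause was not tested. A limit of 1 on the size of the log2 fold change left 18 and 13 members for SMARCB1 in DMSO and dBRD9-A, and 0 for dBRD9-A in GFP cells, 0 in SMARCB1 cells and 0 in the interaction. Leaving out each library in turn gave 37 to 39 and 35 to 39 members for SMARCB1 in DMSO and dBRD9-A. It gave 6 to 13 for dBRD9-A in GFP cells, 2 to 4 in SMARCB1 cells (4 without SMARCB1 cells in dBRD9-A replicate 2) and 2 to 3 in the interaction. The shares of all genes in these fits are not given here. PLXNA2 lost its call in 5 of these 12 fits and NRP2, EFNB3 and EPHB3 in 4 each for dBRD9-A in GFP cells, and PLXNB3 and ROBO1 in 4 each for SMARCB1 in dBRD9-A.

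With the replicate number as a block, 37, 35, 13, 2 and 2 members changed, in the order SMARCB1 in DMSO, SMARCB1 in dBRD9-A, dBRD9-A in GFP cells, dBRD9-A in SMARCB1 cells and interaction. The shares of all genes under this fit are not given here, so these counts only describe the members. The replicate numbers share no stated source, and 2 of 68 named changes, PLXNB3 and ROBO1 for SMARCB1 in dBRD9-A, lost their call.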

Other observations

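The 16 members that were too scarce to be tested had at most 17 counts in a library. ROBO4, an endothelial ROBO receptor, had 0 counts in each library, and 5 of the 16 were at or under 3 counts in all libraries. EPHA10, an EPH receptor without kinase activity, had 4 to 17 counts and was above 3 counts in each of the 12 libraries. SLIT2, a secreted ligand of ROBO1, had 9, 3 and 6 counts in GFP cells in DMSO and 15, 10 and 13 counts in SMARCB1 cells in DMSO. The 15 counts came from replicate 1, the library that stood apart. In dBRD9-A it had 5, 3 and 6 counts in GFP cells and 6, 8 and 8 in SMARCB1 cells, with overlap in CPM. PLXNC1, the plexin that binds SEMA7A, had at most 4 counts.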
